A study of Mus musculus with 6 samples.

Results

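Collagen genes were taken as every gene whose symbol consists of Col, a type number, the letter a and a chain number, which gave 44 of the 27502 genes in the expression tables. The samples were cultures of vascular smooth muscle cells from mouse aorta, 3 given siEzh2, a small interfering RNA against the histone methyltransferase gene Ezh2, and 3 labelled as its control. Both groups were collected at 48 h. The labels do not state what the control cells received, the strain and age of the mice, or whether samples within a group were separate animals or cultures. Each p-value therefore rests on the spread among these samples alone, and that spread may be technical. Values are in FPKM, fragments scaled to the length of a gene's exons and to the size of the library, a level of messenger RNA per unit of gene length.

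Collagens are secreted or membrane proteins in which 3 chains made of a glycine-led repeat wind around each other. Fibrillar collagens pack side by side into the cross-linked fibrils that give the artery wall its strength under load. Network collagens form sheets such as the basement membrane around smooth muscle cells, FACIT collagens (fibril-associated collagens with interrupted helices) coat fibrils, beaded collagens form microfilaments next to the cells, and transmembrane collagens stay anchored in the cell membrane. By these classes the 44 genes comprised 11 fibrillar, 9 network, 9 FACIT, 6 beaded and 4 transmembrane members. The remaining 5 genes (Col7a1, Col15a1, Col18a1, Col26a1 and Col28a1) belong to none of these classes in the grouping used here and are given as other collagens.

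The start regions of 4 members are shown because they include the largest rise and the largest fall among the tested collagens on the log2 scale (Col3a1 and Col8a1) and a pair of chains of 1 molecule that start next to each other, of which 1 fell and the other did not pass the test (Col4a2 and Col4a1). Each window holds 250 bases before and 50 from the annotated start, from RefSeq on GRCm38.p6, written 5′ to 3′ on the strand of the gene. Capitals mark, on either strand, the CCAAT box, the GC box with the letters GGGCGG and the TATA box with the letters TATAAA.
Col3a1, chr1:45311288-45311587, plus strand: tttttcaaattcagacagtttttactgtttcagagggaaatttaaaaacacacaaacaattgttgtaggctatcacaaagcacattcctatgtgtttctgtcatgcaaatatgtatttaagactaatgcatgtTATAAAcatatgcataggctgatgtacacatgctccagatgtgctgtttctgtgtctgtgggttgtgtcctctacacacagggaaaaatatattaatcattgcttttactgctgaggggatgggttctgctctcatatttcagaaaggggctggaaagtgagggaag
Col8a1, chr16:57754688-57754987, minus strand: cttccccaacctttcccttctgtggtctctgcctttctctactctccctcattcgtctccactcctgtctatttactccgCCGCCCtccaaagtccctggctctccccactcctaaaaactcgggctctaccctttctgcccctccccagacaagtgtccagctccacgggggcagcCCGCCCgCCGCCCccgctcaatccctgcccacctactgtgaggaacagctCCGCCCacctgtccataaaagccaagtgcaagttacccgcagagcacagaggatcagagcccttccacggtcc
Col4a1, chr8:11312777-11313076, minus strand: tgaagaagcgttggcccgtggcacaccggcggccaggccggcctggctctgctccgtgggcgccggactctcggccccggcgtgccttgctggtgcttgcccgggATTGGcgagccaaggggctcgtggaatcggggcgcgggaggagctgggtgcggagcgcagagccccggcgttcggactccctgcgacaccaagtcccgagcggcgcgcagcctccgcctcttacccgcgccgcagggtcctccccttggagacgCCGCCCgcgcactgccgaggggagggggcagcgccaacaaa
Col4a2, chr8:11312555-11312854, plus strand: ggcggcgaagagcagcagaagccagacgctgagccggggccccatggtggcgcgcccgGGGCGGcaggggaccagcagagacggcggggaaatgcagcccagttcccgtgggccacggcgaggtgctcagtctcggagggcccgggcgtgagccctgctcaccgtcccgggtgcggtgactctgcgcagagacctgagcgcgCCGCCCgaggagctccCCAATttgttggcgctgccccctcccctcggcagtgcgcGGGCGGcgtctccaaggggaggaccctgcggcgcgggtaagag

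The Col4a1 and Col4a2 windows share 78 bases on opposite strands. The gene bodies overlap by 22 bases head to head. Col3a1 stood apart in composition, with 37.7% G or C bases against 60.3% for Col8a1, 74.0% for Col4a1 and 73.7% for Col4a2, and of the 3 motifs it held only TATAAA. A window was found for 35 of the 44 collagen genes, 38 windows in all. GGGCGG was present in 60.5% of the collagen windows and in 35.7% of all 32851 windows of the same length, CCAAT in 34.2% against 37.4%, and TATAAA in 13.2% against 13.6%. None of these motifs contains another, and a match describes the letters only.

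Collagen transcripts are well-known targets of the miR-29 family of microRNAs, which share 1 seed. The mature sequences from RefSeq are shown with the seed, bases 2 to 8, in capitals, because the site that pairs with it was common among the collagens.
mmu-miR-29a-3p: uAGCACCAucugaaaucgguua
mmu-miR-29b-3p: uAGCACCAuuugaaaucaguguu
mmu-miR-29c-3p: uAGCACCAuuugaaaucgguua
The matching letters TGGTGCT on the sense strand were found in the annotated 3′ UTR of 16 of 21 collagens (76.2%), against 14.1% of 10412 genes. Both counts are over genes with at least 1 FPKM on average in a group and a 3′ UTR annotated in the main transcript. The main transcript is the one with the longest coding sequence. The median 3′ UTR was 959 bases in the collagens and 992.5 bases in all these genes. The first site is shown, in capitals with its surroundings, for 2 collagens that rose (Col3a1 and Col5a2), 2 that fell (Col8a1 and Col1a1) and 1 that did not pass the test (Col4a1), from the transcript sequences of GENCODE M21.
Col3a1, position 235 of the 3′ UTR: aaatgtctcaaTGGTGCTataataa
Col5a2, position 1112: tcttttaatgaTGGTGCTaaaatta
Col8a1, position 2199: atattctaccaTGGTGCTaatatca
Col1a1, position 919: gaaggaatttcTGGTGCTatagaag
Col4a1, position 33: ccgtcacaacaTGGTGCTactcccc
Of the 16 collagens with a site, 3 rose after siEzh2, 7 fell and 6 did not pass the limma test described with the collagen results. Of all 1472 genes with a site, 403 rose, 371 fell and 698 did not pass. Of the 5 collagens without one, Col6a1, Col12a1, Col14a1 and Col28a1 fell and Col1a2 did not pass. Col6a3 and Col18a1, which rose, were not counted, because their main transcripts have no annotated 3′ UTR. Their other transcripts were not searched. The site was thus present in collagens of each outcome.

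Ezh2 itself was at 3.41, 3.59 and 3.88 FPKM in the control samples and at 1.201, 1.09 and 1.05 FPKM in the siEzh2 samples, 3.26 times lower (limma adjusted p = 5.15e-05). Sequencing depth recovered from the values was 16080005 to 18753124 reads per sample. Of the smooth muscle markers, Acta2, the contractile actin, was at 683 to 711 FPKM in control samples, Lmod1 at 16.8, Smtn at 13.4 and Itga8 at 3.11 FPKM in the control mean. Other members of that list were low, as Mylk did not exceed 0.234 FPKM in any sample, Cnn1 1.38 FPKM and Myh11 1.996 FPKM. Tagln did not exceed 0.352 FPKM, but 67.9% of its exon bases lie opposite another gene, and how such reads were counted is not known. By the limma test described with the collagen results, 46.9% of all tested genes were called, 24.1% higher and 22.7% lower. Of 8 smooth muscle markers tested, 6 fell and none rose, Acta2, Lmod1 and Smtn among those that fell. The sum of the 12 listed markers was 723–753 FPKM in control and 547–585 FPKM in siEzh2 samples. Fibroblast and adventitia markers showed 2 higher and 4 lower of 10 tested. Their sum was 445–464 FPKM in control and 429–442 FPKM in siEzh2 samples, most of it Ly6a, at 272 FPKM in the control mean. In bulk RNA, fewer cells of a type and less RNA per cell cannot be told apart, and the part of either marker list in the collagen results was not tested.

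Lists for further cell types were each lower in sum than the smooth muscle list. Most of the smooth muscle sum was Acta2, while the next member, Lmod1, was at 16.8 FPKM in the control mean. Such a sum can thus depend on 1 gene and does not by itself rank cell types. Endothelial markers summed to 4.20–4.57 FPKM in control and 5.06–5.60 FPKM in siEzh2 samples, with 1 of 2 tested higher and 1 lower, and Tie1 under 0.1 FPKM throughout. Macrophage markers summed to 17.6–20.98 and 14.4–15.6 FPKM, and Ptprc and Fcgr1 stayed under 0.1 FPKM in every sample. Of 4 macrophage genes tested, Lyz2 fell from 7.98 to 3.40 FPKM and Csf1r from 2.01 to 0.622 FPKM in the group means, while Cd68 rose from 5.77 to 6.90 FPKM and Cd14 from 2.72 to 3.51 FPKM. Adipocyte markers summed to 52.9–54.4 and 37.2–38.7 FPKM, with 4 of 5 tested lower, among them Plin4 from 22.4 to 15.4 FPKM, Fabp4 from 19.5 to 12.6 FPKM and Adipoq from 8.79 to 7.38 FPKM. Of 10 listed epithelial and mesothelial markers, 6 had values, and Epcam, Krt5, Krt14 and Krt8 had none. Those 6 summed to 4.62–5.44 and 9.82–11.9 FPKM, most of it Krt19, while Cdh1, Krt18 and Wt1 were under 0.1 FPKM throughout. Of 2 tested, Krt19 rose from 3.83 to 9.29 FPKM and Msln did not pass. Cartilage and bone markers are relevant to Col2a1 and Col11a1, chains best known from cartilage. That list, in which Ibsp had no value, summed to 40.7–42.6 FPKM in control and 57.9–60.3 FPKM in siEzh2 samples, most of it Sox9. Of 4 tested, Sox9 rose from 32.9 to 47.2 FPKM and Prg4 from 3.62 to 7.47 FPKM, Comp fell from 1.32 to 0.620 FPKM and Runx2 did not pass. Acan, Cnmd and Hapln1, made by cartilage cells, were under 0.1 FPKM in every sample. The part of these lists in the collagen results was not tested.

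Knockdown of Ezh2 was compared with control for each collagen by limma on log2(FPKM + 1), fitted over the 11869 genes whose mean reached 1 FPKM in either group, with Benjamini-Hochberg adjustment over all of them. A gene is said to rise or fall where its adjusted p is under 0.05. Of the 44 collagens, 23 were tested. Of these, 5 rose and 11 fell, and 7 did not pass. The share called was 69.6% of the tested collagens against a background of 46.9% of all tested genes, with 24.1% of all tested genes higher and 22.7% lower. The median log2 fold change was -0.06 over the tested collagens and 0.01 over all tested genes. The samples of the 2 groups did not overlap for 18 of the 23 tested collagens, against 58.1% of all tested genes. Fold changes on this scale understate the change of low genes, so ratios of mean FPKM are given beside them.

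**Figure D1:**
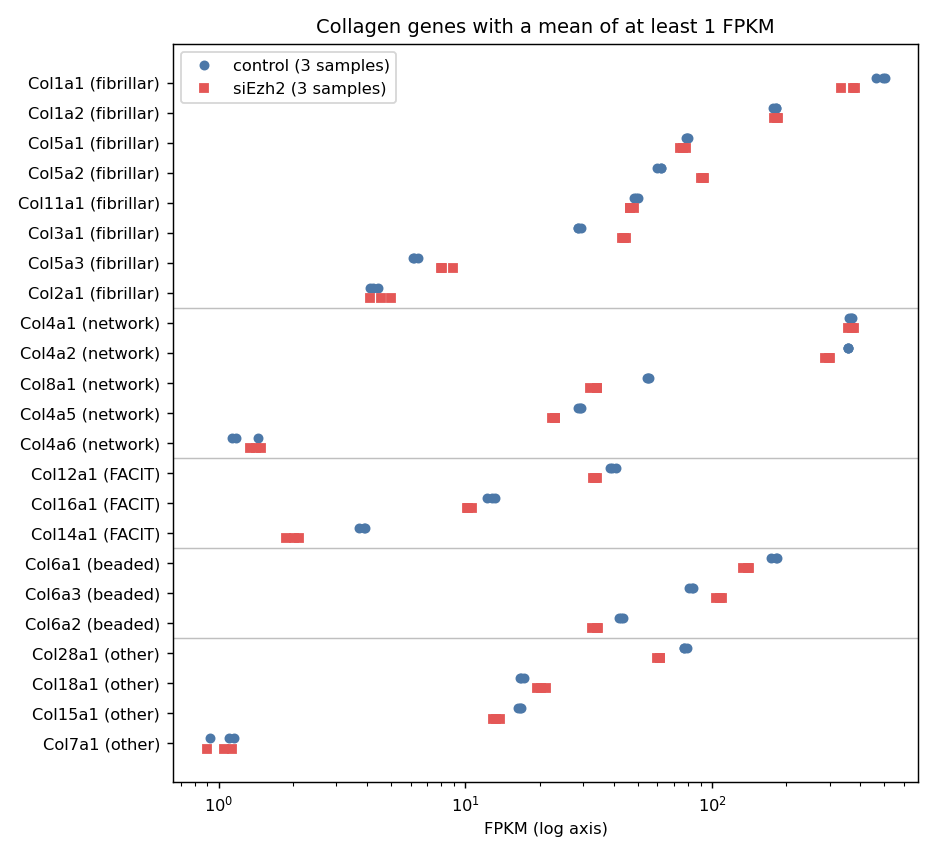
FPKM (log axis) of the 23 tested collagen genes in each of the 3 control and 3 siEzh2 samples, one point per sample. Col1a1, Col4a1 and Col4a2 lie highest, Col7a1 and Col4a6 lowest near 1 FPKM, and the groups separate most for Col3a1, Col5a2, Col8a1 and Col14a1.

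The fibrillar collagens moved in both directions. Of 8 tested members, Col3a1, Col5a2 and Col5a3 rose, Col1a1 fell, and Col1a2, Col5a1, Col11a1 and Col2a1 did not pass the test, with a class median of 0.05 on the log2 scale. Col1a1, the fibrillar gene with the highest FPKM, was 1.34 times lower, while the 3 less abundant genes that rose were 1.33 to 1.52 times higher.

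Col3a1 (chr1:45311538-45349706, mm10), the single chain of type III collagen of distensible tissues, was at 28.6, 28.7 and 29.5 FPKM in control and 44.0, 44.7 and 43.3 FPKM in siEzh2 samples. Every siEzh2 sample was above every control sample, by 1.52 times in the mean (log2 fold change 0.59 with SE 0.0337, limma adjusted p = 9.82e-05). Col5a2 (chr1:45374321-45503282), a chain of the type V collagen that starts fibrils and limits their width, was at 62.0, 62.0 and 60.1 FPKM in control and 89.9, 92.6 and 91.7 FPKM in siEzh2 samples, 1.49 times higher (limma adjusted p = 0.000107). These genes lie tail to tail on chromosome 1, 24614 bases apart. Col5a3, a less common type V chain, was at 6.42, 6.15 and 6.18 FPKM in control and 7.98, 8.03 and 8.95 FPKM in siEzh2 samples, 1.33 times higher (limma adjusted p = 0.00209).

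Col1a1 (chr11:94936224-94953042), which supplies 2 of the 3 chains of type I collagen, was at 463, 493 and 501 FPKM in control and 334.5, 374 and 381 FPKM in siEzh2 samples. The groups did not overlap, although the siEzh2 samples spread more widely, and the mean was 1.34 times lower (log2 fold change -0.42 with SE 0.0619, limma adjusted p = 0.00254). Col1a2 (chr6:4504814-4541544), the partner chain, was at 176, 181 and 182 FPKM in control and 178, 185 and 183 FPKM in siEzh2 samples. Those groups overlapped, and the 95% interval of the log2 fold change was -0.07 to 0.10 (limma adjusted p = 0.726).

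Of the other members that did not pass, Col5a1, the main type V chain, was at 79.1 ± 0.520 (SD, n = 3) FPKM in control and 76.4 ± 1.88 FPKM in siEzh2 samples. Its interval was -0.13 to 0.03 (limma adjusted p = 0.264). Col11a1, a type XI chain that can join type V molecules, was at 49.1 ± 0.846 and 47.0 ± 0.907 FPKM, with an interval of -0.14 to 0.02 (limma adjusted p = 0.196). Every siEzh2 sample was below every control sample in both genes, at 0.965 and 0.958 of the control mean. On reads recovered from the values, limma-voom called Col11a1 lower (adjusted p = 0.0347, with 0.0347 to 0.384 over all alternatives). Col2a1, the cartilage fibril chain, was at 4.26 ± 0.142 and 4.56 ± 0.452 FPKM and did not pass (limma adjusted p = 0.361).

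The fibrillar chains share a gene structure that the choice of members did not use. Of their coding exons, a median of 46.3% were exactly 54 bases long (range 41.2% to 55.0% over 11 genes), the length of 6 repeats of the glycine triplet unit. The median was 30.0% in the FACIT genes, 7.80% in the beaded, 9.15% in the transmembrane and 3.85% in the network genes. The FACIT genes ranged from 6.15% to 44.4%. Those tested lay under their class median, with Col12a1 at 6.15%, Col14a1 at 8.51% and Col16a1 at 17.4%. Pooled over all coding exons of the 10584 tested genes with an annotated coding sequence, 0.642% had this length. Col1a1, which fell, had the lowest share of the fibrillar class.

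**Figure D2:**
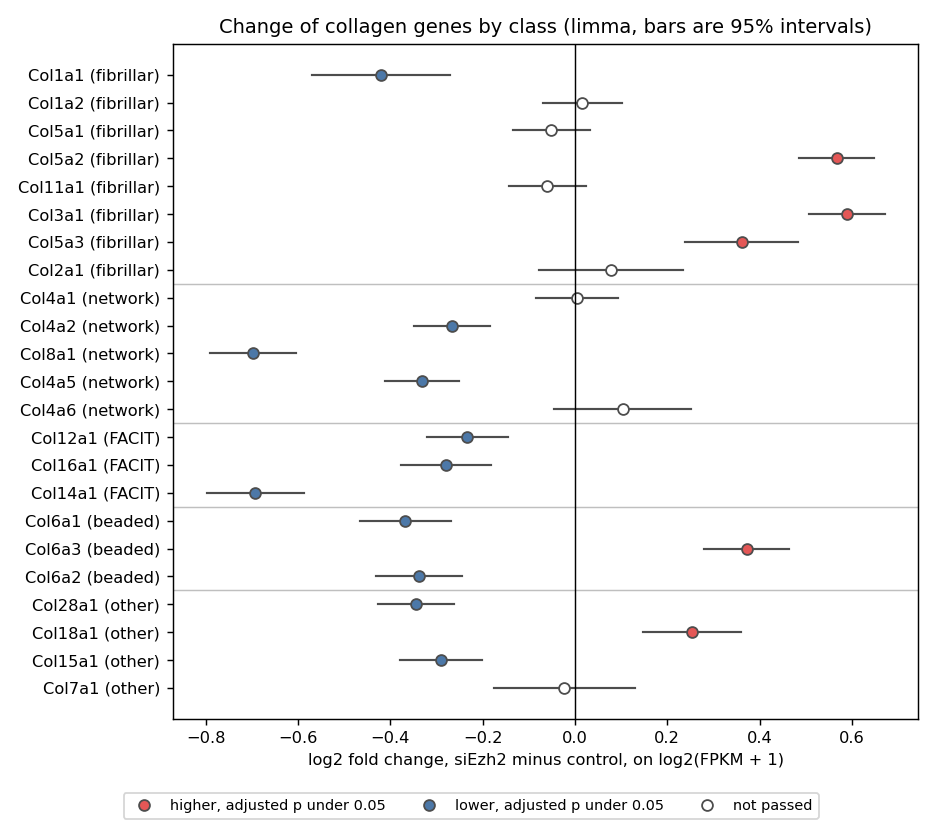
Log2 fold change on log2(FPKM + 1), siEzh2 minus control, of each tested collagen with its 95% interval from limma, grouped by class. The 5 filled red points are higher and the 11 blue points lower at an adjusted p under 0.05, and the FACIT and network classes hold no red point.

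The network collagens fell or did not pass. Of 5 tested, Col8a1, Col4a5 and Col4a2 fell, Col4a1 and Col4a6 did not pass and none rose, with a class median of -0.27. Col8a1 (chr16:57624258-57754737), a short-chain network collagen made by vascular cells, was at 55.6, 54.5 and 55.1 FPKM in control and 34.3, 34.3 and 32.1 FPKM in siEzh2 samples. It was 1.64 times lower (log2 fold change -0.70 with SE 0.0390, limma adjusted p = 9.32e-05), with no overlap between groups and the lowest log2 fold change of the tested collagens.

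Type IV collagen, the scaffold of the basement membrane, is built in most tissues from 2 Col4a1 chains and 1 Col4a2 chain. Col4a1 (chr8:11198423-11312826) was at 361, 368 and 370 FPKM in control and 356, 368 and 377 FPKM in siEzh2 samples, with overlapping groups and an interval of -0.08 to 0.09 (limma adjusted p = 0.934). Col4a2 (chr8:11312805-11449287) was at 356, 358 and 355 FPKM in control and 288, 298 and 302 FPKM in siEzh2 samples. All 3 siEzh2 values of Col4a2 were below all control values, and the mean was 1.203 times lower (limma adjusted p = 0.00148). Of the exon bases, 0.290% of Col4a1 and 0.980% of Col4a2 lie opposite another gene, so that reads of an opposite gene could touch only a small part of either.

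Of the X-linked pair of type IV chains, 1 fell and the other did not pass, and the difference between them was not tested. Col4a5 was at 29.0, 28.6 and 29.4 FPKM in control and 22.4, 23.1 and 23.0 FPKM in siEzh2 samples, 1.27 times lower (limma adjusted p = 0.000621). Col4a6, which starts 1308 bases away on the other strand, was at 1.44, 1.18 and 1.13 FPKM in control and 1.33, 1.42 and 1.48 FPKM in siEzh2 samples. Its groups overlapped (limma adjusted p = 0.209). Without control replicate 1, the highest control value, Col4a6 was called higher (adjusted p = 0.0392, with 0.0392 to 0.476 over all alternatives).

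All 3 tested FACIT collagens fell, with a median of -0.28. Col14a1, which binds the surface of fibrils, was at 3.71, 3.94 and 3.89 FPKM in control and 1.87, 2.11 and 2.02 FPKM in siEzh2 samples, 1.92 times lower (log2 fold change -0.69 with SE 0.0435, limma adjusted p = 0.000125). That was the lowest ratio of mean FPKM among the tested collagens. Col12a1, a long fibril-associated chain of tissues under load, was at 40.8, 38.8 and 39.4 FPKM in control and 33.0, 34.2 and 33.6 FPKM in siEzh2 samples, 1.18 times lower (limma adjusted p = 0.00313). Col16a1 was at 13.2, 12.3 and 12.9 FPKM in control and 10.2, 10.2 and 10.6 FPKM in siEzh2 samples, 1.23 times lower (limma adjusted p = 0.00227). The groups did not overlap in any of these genes.

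The beaded collagens divided by chain. Type VI collagen is assembled from the α1, α2 and α3 chains, of which Col6a1 and Col6a2 fell and Col6a3 rose. Col6a1 (chr10:76708792-76726168) was at 173, 181 and 183 FPKM in control and 134, 140 and 141 FPKM in siEzh2 samples, 1.29 times lower (limma adjusted p = 0.000872). Col6a2, 85161 bases away on the same strand of chromosome 10, was at 41.8, 43.7 and 43.0 FPKM in control and 32.5, 34.1 and 34.4 FPKM in siEzh2 samples, 1.27 times lower (limma adjusted p = 0.000964). Col6a3 (chr1:90765923-90843971), whose long chain carries many von Willebrand factor A domains, was at 82.9, 84.1 and 80.9 FPKM in control and 104, 110.0 and 108.0 FPKM in siEzh2 samples. It was 1.30 times higher (log2 fold change 0.37 with SE 0.0383, limma adjusted p = 0.000681). For all 3 chains the groups were separate, the α3 chain in the opposite direction to the other two.

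Of the other collagens, Col15a1 and Col18a1 are related basement membrane collagens, and Col18a1 is the source of the fragment endostatin. Col18a1 was at 17.3, 16.8 and 16.6 FPKM in control and 20.3, 21.3 and 19.4 FPKM in siEzh2 samples, 1.204 times higher (limma adjusted p = 0.00471). Col15a1 moved the other way, from 16.9, 16.4 and 16.6 FPKM to 13.8, 13.4 and 13.0 FPKM, 1.24 times lower (limma adjusted p = 0.00142). Col28a1 was at 79.3, 77.1 and 76.9 FPKM in control and 61.7, 61.7 and 59.7 FPKM in siEzh2 samples, 1.27 times lower (limma adjusted p = 0.000604). Per length of the main transcript, its control level was 90.1, next to 90.3 for Col6a2 and 88.8 for Col5a2 on the same scale. Col7a1, the anchoring fibril chain of skin, was at 1.06 ± 0.1196 (SD, n = 3) FPKM in control and 1.02 ± 0.119 FPKM in siEzh2 samples and did not pass (limma adjusted p = 0.791).

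The remaining 21 collagens had a mean under 1 FPKM in both groups and were not tested. The transmembrane class was among them entirely, with Col23a1 at 0.464 and 0.507 FPKM in the group means, Col17a1 at 0.0687 and 0.0644 FPKM, and Col13a1 and Col25a1 under 0.02 FPKM in every sample. Groups did not overlap for 4 of the 21, against 12.7% of all genes under the same limit. Col4a3 was lower, at 0.418, 0.412 and 0.3999 FPKM in control and 0.256, 0.188 and 0.282 FPKM in siEzh2 samples, from 227 and 123 recovered reads in all. Col4a4, which starts 71 bases from Col4a3 on the other strand and makes a partner chain, was at 0.614, 0.773 and 0.640 FPKM in control and 0.551, 0.611 and 0.606 FPKM in siEzh2 samples, from 399 and 320 reads. Both of these are chains of the kidney filter's type IV collagen. Col11a2 was higher, with 71 reads in control and 103 in siEzh2 samples, and so was Col9a3, with 59 and 97 reads. With no limit on low values, limma called Col4a3 lower and none of the other 3.

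Low members without separate groups filled the rest of each class. Col24a1 lay between 0.345 and 0.433 FPKM and Col27a1 between 0.111 and 0.212 FPKM over all 6 samples among the fibrillar genes. Among the network genes, Col8a2, the usual partner of Col8a1, had 14 reads in control and 8 in siEzh2 samples, and Col10a1 of growth plate cartilage had 6 and 9. Among the FACIT genes, Col20a1 reached 0.609 FPKM, Col19a1 0.193 FPKM and Col9a2 0.301 FPKM at most, while Col9a1 and Col22a1 stayed under 0.1 FPKM. Col6a4, Col6a5 and Col6a6, the alternatives to the α3 chain of type VI collagen, had 5, 7 and 25 reads in control and 4, 12 and 22 in siEzh2 samples. Col26a1 had 1 read over all 6 samples together. What size of change could have been detected in these genes was not tested.

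**Figure D3:**
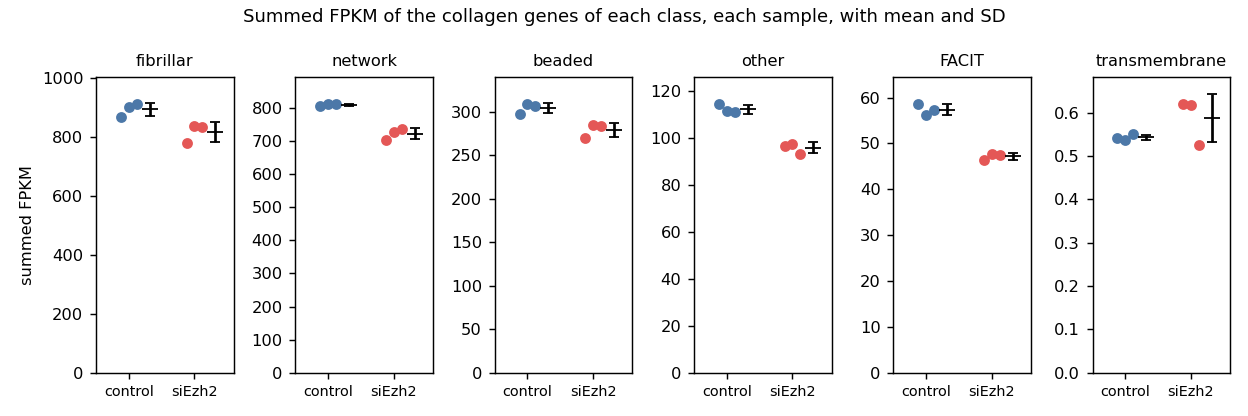
Summed FPKM of all collagens of each class in each sample (points), with the mean and SD of 3 samples beside them, on linear axes from 0. Sums of the fibrillar, network, beaded, FACIT and other collagens are lower in all 3 siEzh2 samples than in any control sample, and those of the transmembrane collagens overlap.

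Summed over all 44 genes, collagen FPKM was 2179 ± 28.8 (SD, n = 3) in control and 1963 ± 56.9 in siEzh2 samples, 9.91% lower, and its share of all FPKM went from 0.757% to 0.683%. The fibrillar sum went from 895 ± 22.3 to 818 ± 32.7 FPKM and the network sum from 809 ± 3.75 to 722 ± 17.2 FPKM. The beaded sum went from 305 ± 6.11 to 279 ± 7.98 FPKM and the FACIT sum from 57.4 ± 1.22 to 47.2 ± 0.746 FPKM, the latter 17.7% lower. The groups did not overlap in any of these sums, which are given without a test. Each sum is led by 1 gene in control samples, with Col1a1 at 54.3% of the fibrillar, Col4a1 at 45.3% of the network, Col6a1 at 58.8% of the beaded and Col12a1 at 69.1% of the FACIT sum. The fibrillar sum was therefore lower although 3 of its members rose and 1 fell. Scaled to the main transcript of each gene in place of all its annotated exons, the fibrillar sum was 5.01% lower in place of 8.67%, and Col1a1 made up 42.3% of it in control samples. On that scale the groups still did not overlap for the fibrillar, network, FACIT, beaded and other sums, and the network sum was 11.1%, the FACIT sum 17.4% and the beaded sum 8.81% lower.

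Since chains of 1 collagen are made from separate genes, ratios between chains were compared per sample, 9 ratios in all. With 3 samples against 3, an exact two-sided permutation test cannot go below p = 0.10, and 8 ratios reached that value (0.113 after Benjamini-Hochberg adjustment over the 9). By that test none of the ratios can pass 0.05, and they are given by their values.

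Col1a1 to Col1a2 was 2.63, 2.72 and 2.75 in control and 1.88, 2.02 and 2.08 in siEzh2 samples, a log2 difference of -0.44. Col3a1 to Col1a1 went from 0.0617, 0.0581 and 0.0590 to 0.132, 0.119 and 0.114, a log2 difference of 1.03. Col5a1 to Col5a2 went from 1.28, 1.27 and 1.33 to 0.829, 0.845 and 0.832, a log2 difference of -0.63. In each of these the groups lay far apart compared with their spread. Col5a3 to Col5a1 rose in value from 0.0790 ± 0.00203 (SD, n = 3) to 0.109 ± 0.00754.

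Col4a1 to Col4a2 went from 1.01, 1.03 and 1.04 to 1.24, 1.24 and 1.249, a log2 difference of 0.27. Col4a5 to Col4a1 went from 0.0792 ± 0.00138 (SD, n = 3) to 0.0622 ± 0.00101. Col6a1 to Col6a3 went from 2.08, 2.15 and 2.26 to 1.29, 1.28 and 1.31, a log2 difference of -0.75. By contrast, Col6a1 to Col6a2 was 4.18 ± 0.0679 in control and 4.12 ± 0.0105 in siEzh2 samples, a log2 difference of -0.02, though its groups did not overlap. Col11a1 to Col5a1 was 0.620 ± 0.0104 and 0.616 ± 0.00625, with overlapping groups (exact permutation p = 0.6).

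The absolute size of these ratios depends on the gene length in the FPKM. The FPKM steps fit the joined length of all annotated exons, which is 12426 bases for Col1a2 against 5348 bases of its main transcript. Per length of the main transcript, Col1a1 to Col1a2 was 1.29 in control and 0.952 in siEzh2 samples, Col4a1 to Col4a2 was 1.13 and 1.36, and Col5a1 to Col5a2 was 0.900 and 0.583. Col6a1 to Col6a2 was 2.12 and 2.09 and Col6a1 to Col6a3 was 1.95 and 1.17. The change of each ratio between groups is the same on either scale, since the length is fixed for each gene.

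**Figure D4:**
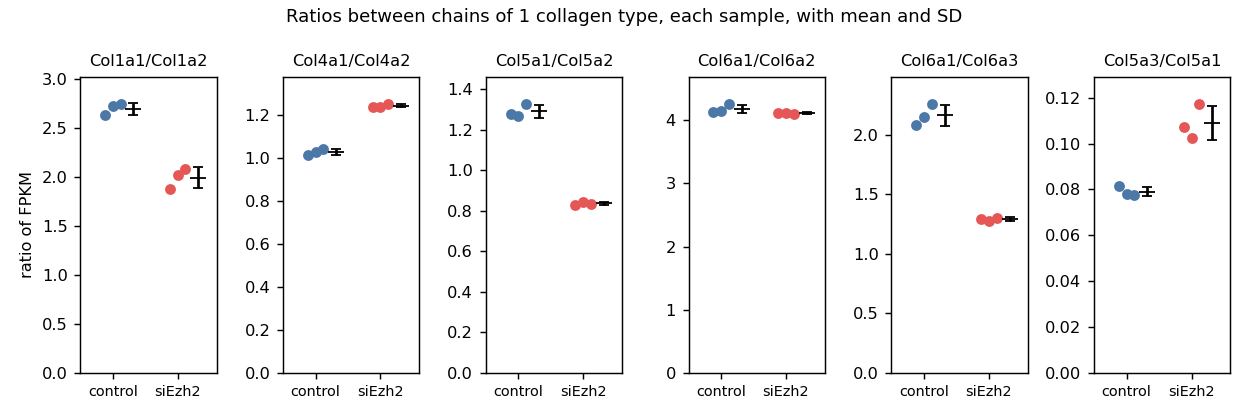
Ratio of the FPKM of 2 collagen genes in each control and siEzh2 sample (points, linear axes from 0), with the mean and SD of 3 samples beside them. Col1a1/Col1a2, Col5a1/Col5a2 and Col6a1/Col6a3 are lower and Col4a1/Col4a2 and Col5a3/Col5a1 higher in every siEzh2 sample than in any control sample, while Col6a1/Col6a2 moves from 4.18 to 4.12.

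Collagen chains are hydroxylated, glycosylated and folded in the endoplasmic reticulum before export. Of 18 tested folding genes, 5 rose, 6 fell and 7 did not pass, with a median of -0.02. That is 61.1% called, against 46.9% of all tested genes. Over the further lists the share called was 55.6% for export, 75.0% for extracellular processing, 90.9% for fibril regulators, 70.0% for receptors and 64.7% for breakdown. Colgalt1, which adds galactose to hydroxylysine, rose from 40.0 ± 0.236 (SD, n = 3) to 59.4 ± 1.09 FPKM (log2 fold change 0.56). Fkbp10, a collagen chaperone, rose from 58.5 ± 1.77 to 77.98 ± 1.03 FPKM. P3h3 and P3h2, of the prolyl 3-hydroxylase family, fell from 25.1 ± 0.587 to 14.6 ± 1.097 FPKM and from 3.81 ± 0.275 to 2.44 ± 0.188 FPKM. Of the exon bases, 11.4% of Colgalt1, 6.58% of Fkbp10 and 28.4% of P3h2 lie in another annotated gene, and the labels do not say whether counting used strand.

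Of 9 export genes tested, 1 rose and 4 fell, with a median of -0.07. Creb3l1, a transcription factor that drives secretory and collagen genes, fell from 35.5 ± 0.403 (SD, n = 3) to 19.3 ± 0.401 FPKM (log2 fold change -0.85, limma adjusted p = 4.02e-05). Sec23a, a coat protein of the vesicles that carry procollagen, fell from 31.0 ± 0.928 to 21.7 ± 0.373 FPKM. Creb3l2, related to Creb3l1, rose from 19.7 ± 0.228 to 21.7 ± 0.430 FPKM (limma adjusted p = 0.0166). It no longer passed without control replicate 2 (adjusted p = 0.0569) or control replicate 3 (adjusted p = 0.0524), with 0.000764 to 0.0569 over all alternatives.

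Outside the cell, propeptides are trimmed and chains cross-linked. Of 12 such genes tested, 5 rose and 4 fell, with a median of 0.01. Pcolce2, an enhancer of the propeptide-trimming protease, rose from 7.54 ± 0.147 (SD, n = 3) to 15.2 ± 0.590 FPKM, and Loxl1, a lysyl oxidase, from 169 ± 3.66 to 244 ± 10.6 FPKM. Loxl2 fell from 8.45 ± 0.476 to 3.35 ± 0.339 FPKM and Lox from 745 ± 18.1 to 507 ± 8.13 FPKM. The family that cross-links collagen and elastin therefore moved in both directions.

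Of 11 fibril regulators tested, 8 fell and 2 rose, with a median of -0.68, the lowest of the 6 lists. Dpt, dermatopontin, fell from 24.8 ± 1.151 (SD, n = 3) to 10.2 ± 0.392 FPKM and Aspn, asporin, from 24.5 ± 0.376 to 10.5 ± 0.664 FPKM. Tnxb, tenascin-X, rose from 5.04 ± 0.292 to 7.59 ± 0.0831 FPKM and Fn1, fibronectin, from 1230 ± 11.6 to 1646 ± 21.2 FPKM. Dpt and Lum, which both fell, are also on the list of fibroblast markers given above. Comp, which fell too, is also on the list of cartilage and bone markers.

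Of 10 collagen receptors tested, 6 rose and 1 fell, with a median of 0.15. Itga2, an integrin chain that binds collagen, rose from 2.42 ± 0.159 (SD, n = 3) to 4.26 ± 0.163 FPKM and Ddr1, a collagen-binding receptor kinase, from 47.3 ± 0.762 to 67.3 ± 2.60 FPKM. Itga1, the other well-known collagen-binding integrin chain, fell from 1.002 ± 0.0360 to 0.592 ± 0.0412 FPKM. Its log2 fold change was -0.33, and -0.67 with a pseudocount of 0.1.

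Of 17 genes of collagen breakdown and its inhibitors tested, 8 rose and 3 fell, with a median of 0.10. Mmp13 and Mmp8, both collagenases, rose from 1.30 ± 0.359 (SD, n = 3) to 2.92 ± 0.625 FPKM and from 0.883 ± 0.0932 to 1.65 ± 0.263 FPKM. The log2 fold change of Mmp8 was 0.49, and 0.83 with a pseudocount of 0.1. Timp2, an inhibitor of these proteases, fell from 1237 ± 38.5 to 1079 ± 6.88 FPKM (limma adjusted p = 0.00622), a call lost after quantile normalization (adjusted p = 0.593, with 6.26e-11 to 0.593 over all alternatives). Of the other inhibitors of that family, Timp1 and Timp3 went the other way. Timp1 rose from 1450 ± 22.6 to 1572 ± 44.7 FPKM (limma adjusted p = 0.0418). The alternatives were not run for Timp1 or Timp3. Timp3 rose from 78.5 ± 3.78 to 94.8 ± 1.22 FPKM (limma adjusted p = 0.00377), and 21.3% of its exon bases lie opposite another gene. Timp4 was under 1 FPKM and not tested. It was lower in siEzh2 samples, as Timp2 was, at 0.485 ± 0.0215 FPKM in control and 0.225 ± 0.0316 FPKM in siEzh2 samples, from 159 and 68 recovered reads. Mmp19 fell from 36.8 ± 1.08 to 32.6 ± 1.41 FPKM (limma adjusted p = 0.0237). It no longer passed without control replicate 1 (adjusted p = 0.0588), control replicate 2 (0.0750) or siEzh2 replicate 3 (0.0549), with 0.000408 to 0.0750 over all alternatives, and 28.3% of its exon bases lie opposite another gene.

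**Figure D5:**
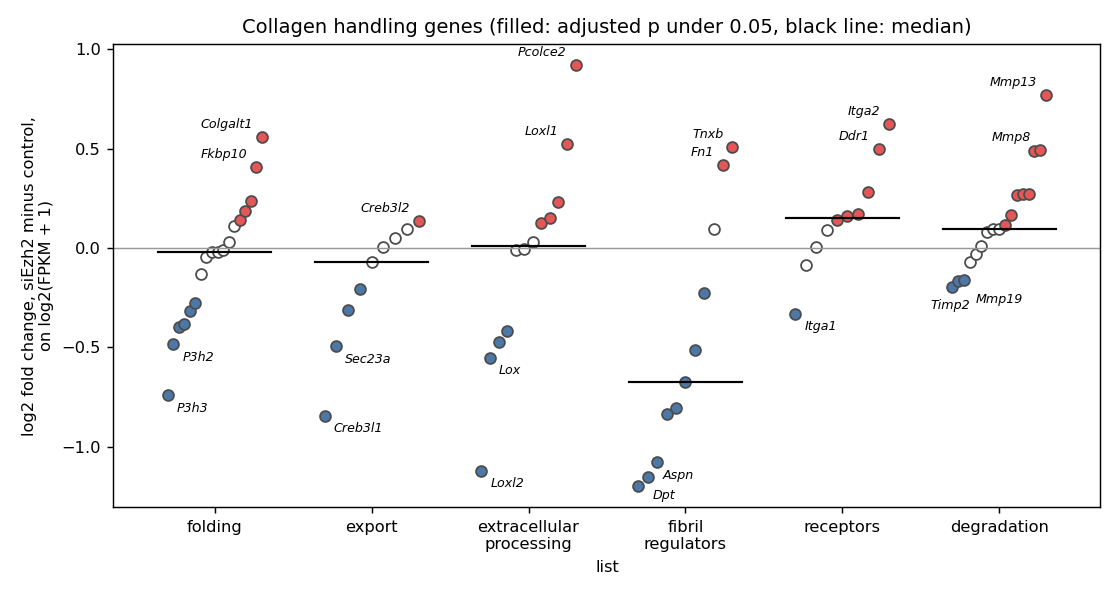
Log2 fold change on log2(FPKM + 1), siEzh2 minus control, of each tested gene of the 6 lists of collagen handling, one point per gene, filled at a limma adjusted p under 0.05, with a black line at the list median. Points lie on both sides of 0 in every list, with most fibril regulators below and most receptors above.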

How the data were processed

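RNA-seq libraries of 6 samples, 3 siEzh2 and 3 control, were made with a stranded kit, per the labels' protocols. The authors deposited 1 table of FPKM per sample. Per the submitters' processing notes, the tools were HISAT2, Trimmomatic, Cufflinks and HTSeq on mm10, with no versions. The sources used here do not say whether counting used strand. FPKM times joined exon length (GENCODE M21) gave whole reads, within 0.02 read, for 98.4% to 98.5% of values under 1000 reads, so depth could be recovered. The groups were compared with limma 3.58.1 (R 4.3.3) on log2(FPKM + 1), for genes whose mean reached 1 FPKM in either group, with Benjamini-Hochberg adjustment. On simulated data with 11683 genes tested, 50 genes were changed at each fold. The fit called 48% of genes changed 1.25-fold, 84% at 1.5-fold, 88% at 2-fold and 96% at 3-fold. There were 17 false among 175 calls, a larger share than the threshold of 0.05. Every gene was given the same relative spread, and far fewer genes were changed than the 46.9% called in the data. These rates may therefore not carry over to the comparison made here. Chain ratios were tested with exact permutation over samples. Replicates were not copies, with a chi-square per degree of freedom of 2.14 to 3.29 within groups.

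The collagens, their classes, the 6 lists of collagen handling genes and the 7 lists of cell type markers were chosen with earlier results of these data known. Every collagen of at least 1 FPKM was named, those below it by range, and in each handling list up to 2 called genes with the largest rise and 2 with the largest fall. Timp1, Timp3, Timp4, Lum and the genes named in the cell type lists are outside this rule and were chosen after their values were seen. Alternatives were quantile normalization, median centring, no filter, a filter of 5 FPKM, a pseudocount of 0.1, a replicate block, trend and robust settings, limma-voom on recovered reads and leaving out each sample. The ratios Col6a1/Col6a3, Col5a3/Col5a1, Col4a5/Col4a1 and Col11a1/Col5a1 were added after the data were seen. Col8a1/Col8a2 was not computed because Col8a2 had 14 and 8 reads. Col21a1, a listed FACIT gene, had no value under that symbol and so was not analysed here.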

Additional observations from a re-analysis of the deposited data

How the results depend on the processing

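The 16 collagen calls were shared by every alternative except the filter of 5 FPKM, which left Col14a1 untested and kept 15. Gained calls were Col4a3 with no filter, Col11a1 with limma-voom on recovered reads, which brought the fibrillar genes that fell to 2, and Col4a6 without control replicate 1, so that leaving out 1 sample gave 0 to 1 network genes that rose. With the replicate number as a block, 5 collagens rose and 11 fell, and 2564 genes rose and 2385 fell over all genes. Whether equal numbers mark pairs is not known. Same-numbered samples correlated at 0.0243, 0.0695 and 0.0405 in their deviations, and samples of unlike number at -0.0623 to 0.0218. Each of the 6 samples correlated best with its own number, a hint from the data only. Among the tested collagens and the ratios, signs changed for Col4a1, Col7a1 and Col11a1/Col5a1 alone, all near 0 and not past the test. The log2 fold change of Col4a1 went to -0.059 after quantile normalization, -0.005 after median centring, -0.006 without control replicate 1 and -0.015 without siEzh2 replicate 3, and lay between -0.015 and 0.026 over the samples left out. Col7a1 went to 0.010 without control replicate 1 and 0.024 without siEzh2 replicate 1, between -0.071 and 0.024 over the samples left out. The log2 difference of Col11a1 to Col5a1 lay between -0.018 and 0.004 when 1 sample was left out. The cause of these shifts was not tested. Over all genes, limma-voom gave 3194 higher and 3036 lower. The 21 collagens under 1 FPKM were not tested, and how far depth limits them was not simulated. With main transcript length, added after seeing the data, all class sums kept their direction.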
